A study of Homo sapiens with 12 samples.

Results

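EGR1, IER2, IER5, NR4A1, NR4A2, KLF4, KLF5, KLF6, KLF10 and ZFP36, 10 early response genes, were followed through a synchronized cell cycle of HCT116, a human colorectal carcinoma cell line. Their probe sets were those that the annotation of the array joins to 1 of these genes and to no other. There were 22 such probe sets, 20 of which passed the level filter, which asks for a log2 signal of 5 or more on 2 or more arrays. All 10 genes had a probe set that passed, among 9130 genes of the array that did. For the 6 genes with more than 1 probe set, the one of highest mean signal stands for the gene. Cells were stopped before S phase by a first (19 h) and a second (16 h) block in 2 mM thymidine with 9 h without drug in between, and were then washed and released. The nocodazole groups received 0.1 mg/ml nocodazole, which depolymerizes microtubules and stops cells in mitosis, for 7, 8, 9 or 10 h. The DMSO groups received the solvent for 0, 2, 4 or 6 h or for 7 to 10 h, hour by hour. All groups had thus passed through the same thymidine blocks in serum-containing medium, and no group of unsynchronized cells was analysed here. Each of the 12 conditions was 1 array of total RNA with no replicate, and the labels do not say whether the times came from separate cultures. Neighbouring times thus stood in for replicates in every test. In limma the spread of each gene was also drawn toward that of genes of like signal. The nocodazole tests had a median of 13.1 total degrees of freedom, more than their arrays alone could give. The p-values thus rest on both spreads, and neither is a spread between replicates.

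Early response genes are transcribed within minutes of a signal from growth factors, stress or a change of medium, from transcription factors that already sit in the cell, and their mRNAs are mostly short-lived. EGR1, NR4A1, NR4A2 and the KLF proteins are DNA-binding transcription factors. EGR1 binds GC-rich sites through zinc fingers, has the corepressors NAB1 and NAB2, and induces NAB2. NR4A1 and NR4A2 are orphan nuclear receptors that act without a known natural ligand. KLF4, KLF5, KLF6 and KLF10 are zinc finger factors of GC and CACCC boxes, and in the gut epithelium KLF5 is known from dividing crypt cells and KLF4 from differentiated cells. IER2 and IER5 are small nuclear proteins, and IER5 is a regulator of the heat shock factor HSF1. ZFP36, or tristetraprolin, binds AU-rich elements and hastens the decay of mRNAs, early response mRNAs among them.

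The labelled cell line was checked against markers. The epithelial markers EPCAM, CDH1, KRT8, KRT18 and KRT19 were detected on all 12 arrays, with log2 values of 10.39 to 14.83, while the T cell marker CD3D, the endothelial marker CDH5 and the globin HBB were detected on 0 arrays at the mark of 3.5, below which a value was called not detected. The leukocyte marker PTPRC was detected on 3 arrays, and the stromal COL3A1 and DCN on 2 each, all at 4.27 or less. The stromal COL1A1 (7.75 to 8.6) and ACTA2 (7.95 to 8.73) and the endothelial PECAM1 (3.62 to 4.87) were detected on all 12 arrays. Each marker was read on its probe set of highest mean, of 5 for COL1A1, 3 for ACTA2 and 5 for PECAM1. Those of COL1A1, KRT8 and KRT18 end in x_at, which the maker gives where some probes may also match other transcripts. Signal on probe sets of other cell types was thus not absent, and its part in the results was not tested. The median over the probe sets above the filter was 8.9, 8.99, 8.39 and 8.28 on the nocodazole arrays at 7, 8, 9 and 10 h, and 8.59 to 9.13 on the DMSO arrays. The share of probe sets not detected was 58.2% and 58.5% on the nocodazole arrays at 9 and 10 h and 61.5% to 63.8% on the others. The DMSO array at 4 h stood apart by its signal for 18S ribosomal RNA, 8.32, against 3.55 to 4.05 elsewhere. Pearson's r between arrays was 0.938 to 0.995. The part of these array-wide shifts in the values of single genes was not tested, other than by the rescalings given with the nocodazole results.

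Promoter sequences around the start sites are shown for EGR1, ZFP36, KLF6 and IER2, since EGR1 stood out at 0 h, ZFP36 gave, among the representative probe sets, the largest difference with nocodazole at 9 and 10 h, KLF6 moved from above to below DMSO, and IER2 passed both the test of the DMSO course and that of nocodazole. RefSeq's table for GRCh38.p14 held promoters of 300 bases for 8 of the 10 genes. Capitals mark matches on either strand to the CArG box, the site of serum response factor, to TGACG, the core of the cyclic AMP response element, to GCGTGGGCG or GCGGGGGCG, sites of EGR proteins, and to GGGCGG, the GC box. In KLF6 the EGR match and a GC box match overlap.
EGR1, chr5:138465229-138465528, plus strand: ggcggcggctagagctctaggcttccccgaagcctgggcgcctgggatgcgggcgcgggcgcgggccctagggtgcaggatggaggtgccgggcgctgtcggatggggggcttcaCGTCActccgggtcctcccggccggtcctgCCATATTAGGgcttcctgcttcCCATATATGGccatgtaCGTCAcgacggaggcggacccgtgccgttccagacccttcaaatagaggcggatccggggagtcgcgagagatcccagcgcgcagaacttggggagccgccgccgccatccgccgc
ZFP36, chr19:39406597-39406896, plus strand: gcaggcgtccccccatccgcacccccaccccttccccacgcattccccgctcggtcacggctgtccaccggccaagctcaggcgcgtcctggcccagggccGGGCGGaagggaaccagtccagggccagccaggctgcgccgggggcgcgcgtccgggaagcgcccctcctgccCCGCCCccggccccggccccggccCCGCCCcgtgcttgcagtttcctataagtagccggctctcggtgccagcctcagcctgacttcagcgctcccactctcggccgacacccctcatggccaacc
KLF6, chr10:3785160-3785459, minus strand: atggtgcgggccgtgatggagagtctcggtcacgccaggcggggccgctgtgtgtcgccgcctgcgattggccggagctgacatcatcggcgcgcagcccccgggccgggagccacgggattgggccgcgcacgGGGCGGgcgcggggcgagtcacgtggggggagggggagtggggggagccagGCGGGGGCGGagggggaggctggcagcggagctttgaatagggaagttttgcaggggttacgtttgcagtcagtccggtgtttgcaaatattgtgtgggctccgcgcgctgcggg
IER2, chr19:13150161-13150460, plus strand: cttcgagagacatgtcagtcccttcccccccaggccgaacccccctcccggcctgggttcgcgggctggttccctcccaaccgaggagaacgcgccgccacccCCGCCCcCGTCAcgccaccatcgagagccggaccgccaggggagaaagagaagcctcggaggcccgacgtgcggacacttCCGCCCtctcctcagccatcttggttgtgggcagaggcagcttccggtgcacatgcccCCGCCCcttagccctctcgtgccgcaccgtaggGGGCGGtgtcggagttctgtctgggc

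EGR1 had 2 matches to the CArG box, at 105 and 83 bases before the start, and was the only one of the 8 genes with any, where 1.3% of all 35116 promoters of this length held one. KLF6 held the only EGR site among them, which stood in 5.8% of all promoters. The core TGACG was found in EGR1, IER2, KLF4 and KLF5, against 24.6% of all promoters, and the full element TGACGTCA in 0 of the 8 and 1.8% of all. The GC box GGGCGG was found in 6 of the 8 and in 45.0% of all promoters. The 8 genes had 10 promoters in all, since NR4A1 and KLF5 had more than 1. A gene was counted if any of its promoters held a match, while the shares of all are per promoter. The counts and the shares are thus not like for like. These are matches of letters, and no binding was measured.

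Over the DMSO course, EGR1, IER2, NR4A2, KLF5, KLF6 and ZFP36 changed with time, and IER5, NR4A1, KLF4 and KLF10 did not pass the test. Time was fitted to the 8 DMSO arrays in limma as a natural cubic spline (3 degrees of freedom), with Benjamini-Hochberg adjustment over all 9130 genes. The p-values of the course are of this fit. The span given beside them, from the highest to the lowest DMSO array, was not itself tested. These 6 of the 10 genes were called where 21.8% of all genes were, and KLF4 passed as well with quantile normalization, and KLF4 and IER5 with array medians subtracted. The median distance between the highest and the lowest DMSO array was 1.13 on the log2 scale over the 10 genes and 0.77 over all genes. The plot of the 10 genes by hour shows EGR1 high at the moment of release, NR4A2, KLF5 and KLF6 high at 2 h and low at 7 to 9 h, and the 2 treatments apart at 9 and 10 h for IER2, IER5, KLF5, KLF10 and ZFP36.

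**Figure D1:**
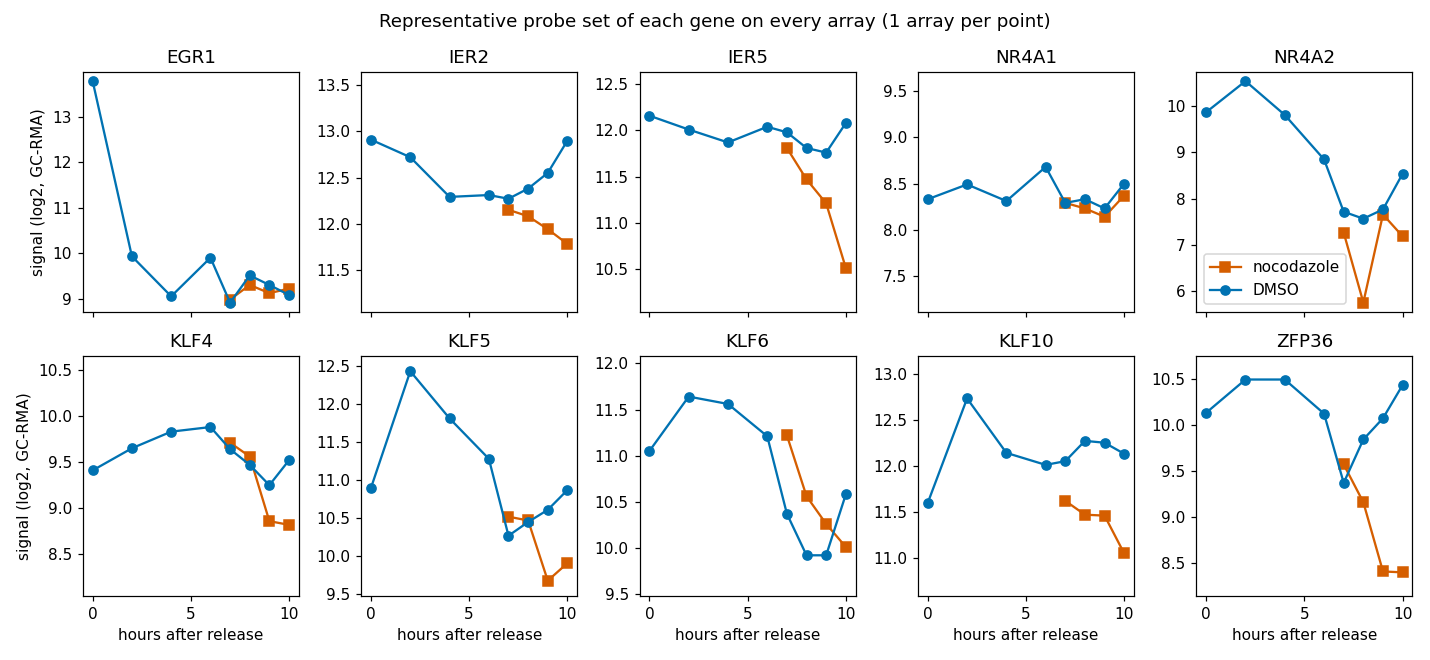
Log2 GC-RMA signal of the representative probe set of each of the 10 genes against hours after release, with nocodazole as squares and DMSO as circles and 1 array per point; each panel has its own range on the vertical axis. EGR1 with DMSO is at 13.79 at 0 h and at 8.91 to 9.93 afterwards, and ZFP36 at 9 and 10 h is at 8.41 and 8.4 with nocodazole and at 10.07 and 10.43 with DMSO.

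EGR1 had log2 values of 13.79, 9.93, 9.05 and 9.9 at 0, 2, 4 and 6 h with DMSO, and of 8.91, 9.51, 9.3 and 9.08 at 7 to 10 h. The array at the moment of release was thus far above all later ones, and the 7 later arrays spanned 1.02. The distance from the highest to the lowest array was 4.88, or 29.49-fold, and the spline had an adjusted p of 0.00438 in limma. Without the 0 h array the adjusted p was 0.699 in limma, so that the call rests on this 1 array. The other EGR1 probe sets were also highest at 0 h and then went apart from the representative one. Probe set 201694_s_at read 10.98, 7.83, 6.98 and 7.65 at 0, 2, 4 and 6 h and then 9.58, 10.13, 9.99 and 9.68 at 7, 8, 9 and 10 h. Probe set 201693_s_at read 7.88 at 0 h, 4.08 to 4.99 at 2 to 6 h and 6.66 to 7.33 at 7 to 10 h. Both thus show a trough at 2 to 6 h and higher values from 7 h on, which the representative probe set does not, and Pearson's r over the 12 arrays was 0.929 between these 2 and 0.347 and 0.232 with the representative. Tested on its own, each of the 3 passed the course test, with adjusted p of 0.00666, 0.00234 and 0.0239 in limma over 15030 probe sets, of which 24% passed.

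IER2 had log2 values of 12.91, 12.72, 12.29 and 12.31 at 0, 2, 4 and 6 h with DMSO, and of 12.27, 12.38, 12.55 and 12.9 at 7 to 10 h. The course was a shallow bowl, low from 4 to 8 h and back at the starting value at 10 h, with a span of 0.64 and an adjusted p of 0.0122 in limma, which was 0.05 without the 0 h array. IER5, the other member of its family in the group, stayed between 11.76 and 12.16 on all 8 arrays, a span of 0.40. Its course did not pass the test (adjusted p = 0.639 in limma), but did with array medians subtracted, where the span was 0.51 (adjusted p = 0.032).

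NR4A2 had log2 values of 9.87, 10.54, 9.81 and 8.85 at 0, 2, 4 and 6 h with DMSO, and of 7.72, 7.57, 7.77 and 8.54 at 7 to 10 h. The first 3 arrays were all above the 5 later ones. It had the strongest course of the 10 genes by p, with a span of 2.96, or 7.8-fold, and an adjusted p of 0.00135 in limma. Probe sets 216248_s_at and 204622_x_at followed the same course, with spans of 3.51 and 3.96, and both passed on their own with adjusted p of 0.00422 and 0.00234 in limma. For its relative NR4A1 the probe sets disagreed. The representative, 211143_x_at, stayed between 8.23 and 8.68 with DMSO (adjusted p = 0.956 in limma), while 202340_x_at read 8.64, 9.02, 7.31, 6.5, 7.23, 7.39, 7.31 and 7.91, a span of 2.52 with an adjusted p of 0.0669 in limma. The third, 210226_at, was not detected on any array. Both of the detected NR4A1 probe sets carry the suffix that the maker gives where some probes may also match other transcripts, and their r over the 12 arrays was 0.15.

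KLF5 had log2 values of 10.9, 12.43, 11.81 and 11.28 at 0, 2, 4 and 6 h with DMSO, and of 10.27, 10.45, 10.61 and 10.87 at 7 to 10 h. KLF6 read 11.05, 11.64, 11.56, 11.21, 10.37, 9.92, 9.92 and 10.58 at the same times. On these probe sets both were highest at 2 h and lowest at 7 to 9 h, with spans of 2.15 and 1.72 and adjusted p of 0.0109 and 0.00479 in limma. With a spline of 2 degrees of freedom neither passed, with adjusted p of 0.295 for KLF5 and 0.0934 for KLF6 in limma, and without the 4 h array that of KLF5 was 0.0555. The second KLF5 probe set, 209212_s_at, read 8.14, 9.32, 9.16, 8.59, 8.82, 8.38, 8.62 and 9.49 over the 8 DMSO times. It was thus lowest at 0 h and highest at 10 h, unlike the representative, and its course, with a span of 1.35, did not pass (adjusted p = 0.0642 in limma). The second KLF6 probe set 1555832_s_at followed the first (r of 0.977 over 12 arrays, adjusted p = 0.00441 in limma), but 208961_s_at and 208960_s_at each spanned only 0.73 and did not pass. KLF10 had log2 values of 11.6, 12.73, 12.14, 12.01, 12.05, 12.27, 12.25 and 12.13, lowest at 0 h and highest at 2 h. Its course, with a span of 1.13, did not pass (adjusted p = 0.606 in limma). Without the 0 h array the KLF10 span was 0.72, and the spline had an adjusted p of 0.0417 in limma. KLF4 stayed between 9.25 and 9.88, and its course, with a span of 0.64, did not pass (adjusted p = 0.219 in limma). The course did pass with quantile normalization (span 0.81, adjusted p = 0.0117) or array medians subtracted (span 0.75, adjusted p = 0.0153).

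ZFP36 had log2 values of 10.13, 10.49, 10.49 and 10.12 at 0, 2, 4 and 6 h with DMSO, and of 9.37, 9.84, 10.07 and 10.43 at 7 to 10 h. The lowest array was that at 7 h, and the 10 h array was back near the values at 2 and 4 h. Its course, with a span of 1.12, had an adjusted p of 0.0377 in limma, a call that was lost when any 1 time other than 6 h was left out, with adjusted p of 0.0522 to 0.156. It was also lost with a spline of 2 degrees of freedom (adjusted p = 0.66 in limma), without the level filter (0.0752) and without the intensity trend (0.0543).

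Between windows of the DMSO course, NR4A2 fell at 6 to 8 h relative to 0 to 4 h and no other of the 10 genes passed. It averaged 8.05 ± 0.70 at 6 to 8 h and 10.07 ± 0.40 at 0 to 4 h (SD over 3 arrays each), a difference of -2.02 ± 0.37 (standard error) with an adjusted p of 0.0275 in limma. This was 1 of 10 genes lower where 0.635% of all genes were called lower. Its other probe sets differed by -2.72 and -2.32 and passed as well. The call was lost without the array at 0, 2, 7 or 8 h, with adjusted p of 0.0528 to 0.127 in limma. KLF5 differed by -1.04 ± 0.38, KLF6 by -0.91 ± 0.33 and ZFP36 by -0.60 ± 0.21 between the same windows, with adjusted p of 0.139, 0.13 and 0.127 in limma. The second KLF5 probe set differed by -0.28, and the other detected KLF6 probe sets by -1.27, 0.15 and 0.08, so that the probe sets of these genes did not fall alike. Without the 6 h array KLF6 and ZFP36 passed, with differences of -1.27 and -0.77 and adjusted p of 0.0196 and 0.0453. EGR1 differed by -1.48 ± 1.02, with a standard error that carries the 0 h array, while its other probe sets differed by 0.59 and 0.52 in the other direction. Between 9 to 10 h and 6 to 8 h, 0 of the 10 genes and 0% of all genes passed in limma, although 470 of the 9130 genes and 0 of the 10 had an unadjusted p under 0.05. The largest such differences among the 10 were 0.47 ± 0.24 for ZFP36 and 0.40 ± 0.18 for IER2.

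With nocodazole, IER2, IER5, NR4A2, KLF5, KLF10 and ZFP36 were lower than with DMSO over 7 to 10 h, and with the values as deposited none of the 10 was called higher. The 4 nocodazole arrays were compared with the 4 DMSO arrays of the same hours in limma, with the hour as a block. The 6 genes called lower were 6 of 10, where 16.9% of all genes were called lower. The median difference was -0.47 over the 10 genes and -0.22 over all genes. The calls of IER2, IER5 and KLF5 were lost without 7 h (adjusted p = 0.128, 0.066 and 0.382) or without 8 h (0.13, 0.0651 and 0.362). That of KLF5 (-0.41) was also lost with array medians subtracted (-0.12), quantile normalization (-0.14), the mean of its probe sets (-0.34) or no intensity trend, that of NR4A2 with quantile normalization (-0.61) or without the block, and that of IER2 with array medians subtracted (-0.25, adjusted p = 0.0537). Calls were gained too. Counted in either direction, 5 of the 10 were called with array medians subtracted and 5 with quantile normalization. With the mean of the probe sets 6 were called, and without 10 h also 6. A gene outside those called lower above was thus called in each of these settings, in a direction not given here. KLF6 differed by 0.31 and did not pass as deposited (adjusted p = 0.163 in limma). In RNA from whole cultures, fewer cells that express a gene and less RNA of it per cell cannot be told apart.

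At 7 and 8 h alone, 0 of the 10 genes passed, as did only 0.0219% of all genes (2 of 9130). KLF6 (0.75), NR4A2 (-1.14) and KLF10 (-0.62) had an unadjusted p under 0.05 and an adjusted p of 0.793 to 1 in limma. KLF6 and KLF10 came past the threshold when 9 h or 10 h was left out, fits that leave 1 array of each treatment at the later hours. Without 7 h the NR4A2 difference was -1.81, which is 1 nocodazole array against 1 DMSO array at 8 h. At 7 h it was -0.46. With array medians subtracted all 3 passed. At 9 and 10 h, IER2, IER5, KLF5, KLF10 and ZFP36 were lower, 5 of the 10 genes, where 40.8% of all genes were called lower and 404 genes were called higher. The share is close to that of all genes. The median difference at 9 and 10 h was -0.80 over the 10 genes and -0.44 over all genes, and 81.7% of all genes had a difference below 0. When the array medians were subtracted, the calls among all genes at these hours divided into 2591 higher and 1328 lower, and with quantile normalization into 1589 higher and 1615 lower. The direction of a small difference at 9 and 10 h, and the size of the larger ones, thus depend on the scale. For JUN, an early gene outside the 10, the difference was 2.76 with quantile normalization and 2.79 with array medians subtracted. The adjusted p in limma were 6.55e-05 and 8.62e-37. So small a value cannot come from a gene's own spread on these few arrays. The p-values with array medians subtracted are therefore not comparable with the others.

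**Figure D2:**
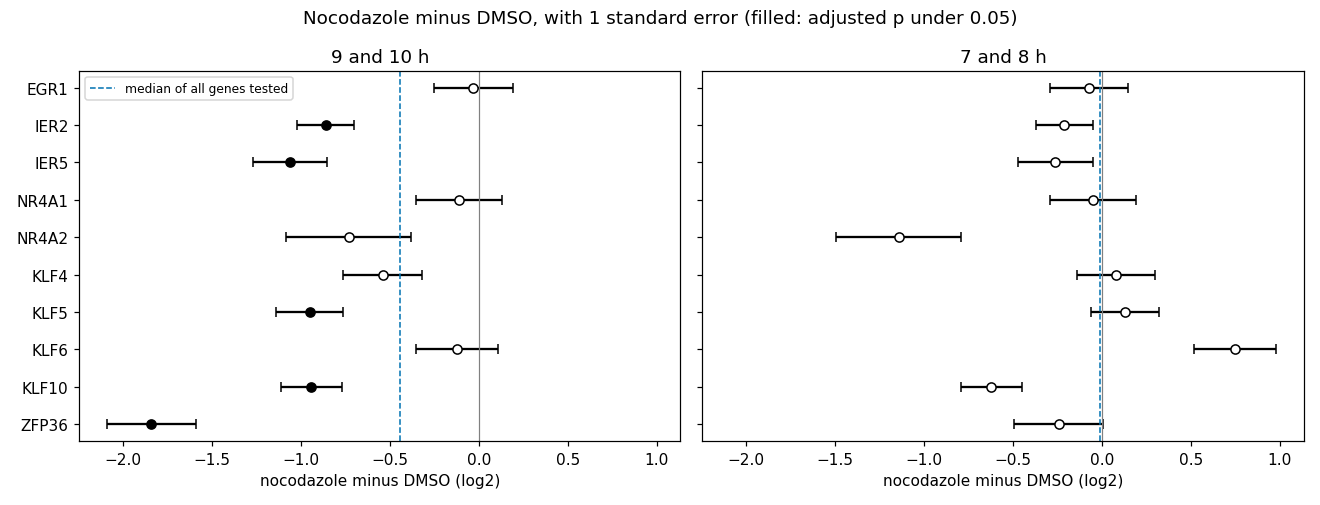
Log2 difference of nocodazole minus DMSO for each of the 10 genes at 9 and 10 h (left) and 7 and 8 h (right), with 1 standard error from limma; filled points had an adjusted p under 0.05, and the dashed line is the median of all genes tested, -0.44 and -0.01. ZFP36 at -1.84 lies farthest below the line at 9 and 10 h, and KLF6 at 0.75 and NR4A2 at -1.14 lie farthest from it at 7 and 8 h.

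ZFP36 had log2 values of 9.57, 9.16, 8.41 and 8.4 with nocodazole at 7, 8, 9 and 10 h and 9.37, 9.84, 10.07 and 10.43 with DMSO. The first nocodazole array was above its DMSO partner and the 3 later ones were below it, by more at each hour. At 9 and 10 h the difference was -1.84 ± 0.25 (standard error), or 3.59-fold lower, with an adjusted p of 0.000267 in limma. It was -1.25 with array medians subtracted and -1.23 with quantile normalization, and passed in both. At 7 and 8 h the difference was -0.24 ± 0.25. The change between the 2 pairs of hours, -1.61 ± 0.35, passed as well (adjusted p = 0.0167 in limma). ZFP36 and KLF5 were the 2 of the 10 genes whose change was called lower, where that of 10.3% of all genes was. The change was below 0 in 8 of the 10 genes and in 82.3% of all genes. Without 7 h the change in ZFP36 was -1.16, with an adjusted p of 0.0967, and with quantile normalization it was -0.98, with an adjusted p of 0.105.

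KLF5 had log2 values of 10.52, 10.47, 9.68 and 9.91 with nocodazole at 7, 8, 9 and 10 h and 10.27, 10.45, 10.61 and 10.87 with DMSO. The groups were close at 7 and 8 h, where nocodazole was above DMSO by 0.24 and 0.02. They were apart at 9 and 10 h, where the difference was -0.95 ± 0.19, 1.93-fold lower (adjusted p = 0.00216 in limma). It was -0.35 with array medians subtracted and -0.42 with quantile normalization, and passed in both. Its second probe set, 209212_s_at, was lower by a similar amount at 9 and 10 h (-0.92, adjusted p = 0.03 in limma over 15030 probe sets, of which 44.3% were called). The change from the earlier pair of hours was -1.08 ± 0.26 with an adjusted p of 0.0236, and with array medians subtracted it was -0.47 with an adjusted p of 0.0612. Without 7 h or 8 h it was -0.97 or -1.19 and did not pass (adjusted p = 0.198 and 0.229), nor did it on the second probe set (-1.29, adjusted p = 0.0674).

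KLF6 had log2 values of 11.22, 10.56, 10.26 and 10.01 with nocodazole at 7, 8, 9 and 10 h and 10.37, 9.92, 9.92 and 10.58 with DMSO. It was the only gene of the 10 that was above DMSO at 7, 8 and 9 h and below it at 10 h. At 7 and 8 h the difference was 0.75 ± 0.23, and the other probe sets gave 0.89, 0.80 and 1.23, with adjusted p of 0.773 to 0.807. At 9 and 10 h it was -0.12 ± 0.23 and was 0.48 with array medians subtracted (adjusted p = 0.00209). Without 9 h it was -0.57 and without 10 h it was 0.34, each from 1 nocodazole array against 1 DMSO array. The change between the hours, -0.86 ± 0.32, did not pass (adjusted p = 0.0812 in limma). Without 9 h, where 10 h alone stands for the later hours, the change was -1.32. It passed for probe sets 1555832_s_at and 208960_s_at on their own, at -1.42 and -1.80 with adjusted p of 0.0358 and 0.0406 in limma.

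KLF10 had log2 values of 11.62, 11.47, 11.46 and 11.05 with nocodazole at 7, 8, 9 and 10 h and 12.05, 12.27, 12.25 and 12.13 with DMSO. All 4 nocodazole arrays were below all 4 DMSO arrays. The difference over 7 to 10 h was -0.78 ± 0.12 (adjusted p = 0.00142 in limma), -0.62 ± 0.17 at 7 and 8 h and -0.94 ± 0.17 at 9 and 10 h, where the adjusted p was 0.00119. The difference at 9 and 10 h was -0.35 with array medians subtracted and -0.62 with quantile normalization, and passed in both. It passed over 7 to 10 h under all alternatives run, with differences of -0.49 to -0.87. KLF4 had log2 values of 9.71, 9.56, 8.86 and 8.82 with nocodazole at these hours and 9.64, 9.47, 9.25 and 9.52 with DMSO. Its difference of -0.54 ± 0.22 at 9 and 10 h did not pass (adjusted p = 0.0537 in limma). Without 9 h it was -0.71, from 1 array of each treatment, and with array medians subtracted it was 0.05.

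IER5 had log2 values of 11.81, 11.47, 11.21 and 10.51 with nocodazole at 7, 8, 9 and 10 h and 11.98, 11.81, 11.76 and 12.08 with DMSO. The nocodazole values stood lower at each later hour, while the DMSO values had no such order. IER2 read 12.15, 12.08, 11.94 and 11.78 with nocodazole and 12.27, 12.38, 12.55 and 12.9 with DMSO, so that its 4 nocodazole arrays were all below the DMSO arrays. At 9 and 10 h the differences were -1.06 ± 0.21 for IER5 and -0.86 ± 0.16 for IER2, with adjusted p of 0.00242 and 0.00164 in limma. With array medians subtracted the IER5 difference was -0.47 and passed, and that of IER2 was -0.27 and did not (adjusted p = 0.107). With quantile normalization both were still called lower. The plot by hour shows that for IER2 and ZFP36 the DMSO arrays moved up from 7 to 10 h as the nocodazole arrays moved down.

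NR4A2 had log2 values of 7.27, 5.76, 7.66 and 7.19 with nocodazole at 7, 8, 9 and 10 h and 7.72, 7.57, 7.77 and 8.54 with DMSO on its representative probe set. Each nocodazole array was below its DMSO partner, by the most at 8 h and by the least at 9 h. The difference over 7 to 10 h was -0.93 ± 0.25 (adjusted p = 0.023 in limma). At 9 and 10 h it was -0.73 ± 0.35 and did not pass (adjusted p = 0.104 in limma). It came past the threshold without 7, 8 or 9 h, fits that leave 1 array of each treatment in a pair of hours. The call over 7 to 10 h was lost without 10 h, where the difference was -0.63 with an adjusted p of 0.211. The other NR4A2 probe sets gave far larger differences. Probe set 216248_s_at read 5.56, 5.83, 4.31 and 5.01 with nocodazole and 7.18, 6.75, 7.69 and 8.32 with DMSO. Probe set 204622_x_at read 6.04 and 4.23 with nocodazole at 7 and 8 h and was not detected at 9 and 10 h, against 6.79, 6.55, 7.17 and 8.1 with DMSO. Their differences at 9 and 10 h were -3.34 and -4.62, with adjusted p of 0.000565 and 0.000571 in limma over 15030 probe sets, of which 44.3% were called. The second difference sets arrays below the detection mark against arrays above it, so that its size is uncertain. Probe set 204622_x_at also carries the suffix described for NR4A1, so that some of its probes may match other transcripts. The plot of probe sets shows the 3 together on the DMSO arrays and apart on the nocodazole arrays at 9 and 10 h.

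**Figure D3:**
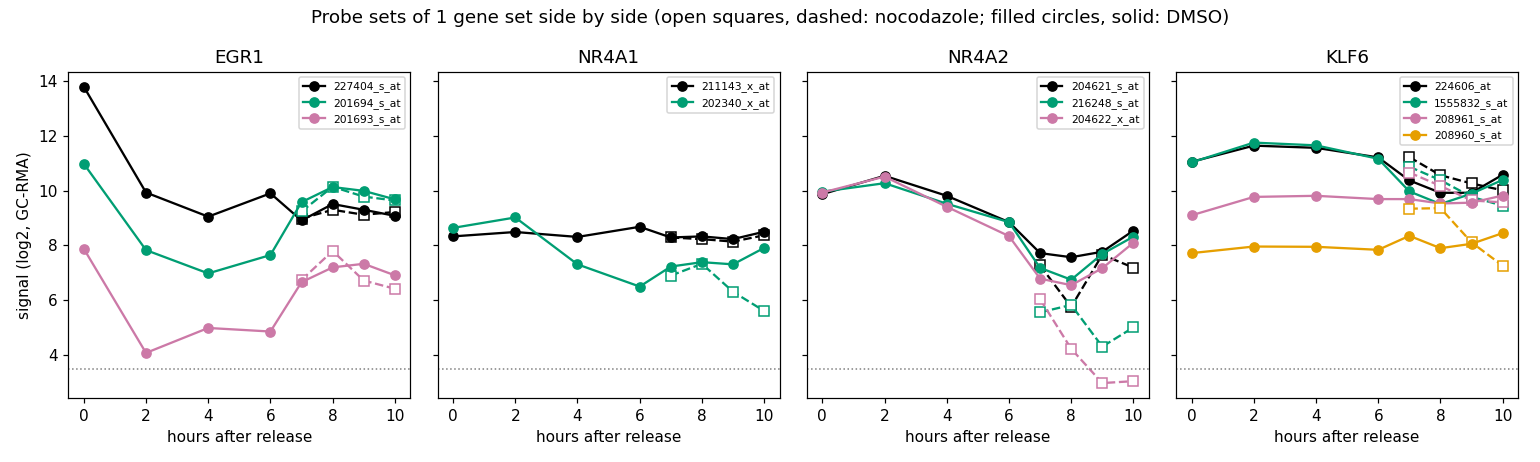
Log2 GC-RMA signal of each detected probe set of EGR1, NR4A1, NR4A2 and KLF6 against hours after release, with nocodazole as open squares on dashed lines and DMSO as filled circles on solid lines; the dotted line is the detection mark of 3.5. The NR4A2 probe sets at 10 h read 7.19, 5.01 and 3.05 with nocodazole and 8.54, 8.32 and 8.1 with DMSO.

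NR4A1 differed likewise between its probe sets. The representative read 8.29, 8.23, 8.14 and 8.37 with nocodazole at 7, 8, 9 and 10 h and 8.29, 8.33, 8.23 and 8.5 with DMSO, a difference of -0.11 ± 0.24 at 9 and 10 h (adjusted p = 0.733 in limma). Probe set 202340_x_at read 6.9, 7.33, 6.31 and 5.61 with nocodazole and 7.23, 7.39, 7.31 and 7.91 with DMSO, and was lower at 9 and 10 h (-1.64, 3.12-fold, adjusted p = 0.00571). EGR1 was not called on any probe set. The representative read 8.98, 9.3, 9.12 and 9.22 with nocodazole and 8.91, 9.51, 9.3 and 9.08 with DMSO, a difference of -0.03 ± 0.22 at 9 and 10 h, and its other probe sets differed by -0.13 and -0.55 with adjusted p of 0.608 and 0.109. With array medians subtracted the EGR1 difference was 0.57 with an adjusted p of 0.0025, and that of NR4A1 was 0.49 with an adjusted p of 0.0336, both higher with nocodazole.

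The other genes of these families and pathways were taken from lists, some of whose members are among the 10, and their counts at 9 and 10 h stand against 40.8% of all genes called lower. Of the EGR family, EGR3, EGR4 and WT1 did not pass the level filter. NAB2, the corepressor that EGR1 induces, fell by 2.98 with nocodazole at 9 and 10 h (adjusted p = 3.15e-05 in limma), and its change from 7 and 8 h passed as well (-2.27, adjusted p = 0.00788). The NAB2 difference was -2.38 with array medians subtracted and -2.43 with quantile normalization. Its relative NAB1 differed by -1.09 (adjusted p = 0.00564), and by -0.49 and -0.44 on these scales, of which the second did not pass (adjusted p = 0.0638). Of 8 KLF genes tested of 17 listed, 6 were lower at 9 and 10 h and 0 higher, with a median difference of -0.82 against -0.44 for all genes. Beside KLF5 and KLF10 these were KLF3 (-1.26), KLF13 (-0.92), KLF2 (-0.73) and KLF16 (-0.72), and with array medians subtracted 3 of the 8 were called lower and 1 higher. The calls of KLF13, KLF2 and KLF16 were lost on both rescalings. IER3 was lower (-0.94, adjusted p = 0.000459), a call that was lost with array medians subtracted (-0.34, adjusted p = 0.0951). With quantile normalization the IER3 call was kept (-0.81, adjusted p = 0.000266). IER5L differed by -0.06, and with array medians subtracted by 0.53, higher with nocodazole (adjusted p = 0.00836). ZFP36L2, a paralog of ZFP36 and a decay factor too, was lower (-1.29, adjusted p = 0.000399) and was so on both rescalings. ZFP36L1 differed by 0.38 in the other direction (adjusted p = 0.0587). It differed by 0.54 with quantile normalization (adjusted p = 0.00209 in limma) and by 0.97 with array medians subtracted, and passed in both. TIA1, which represses translation of AU-rich mRNAs, was lower (-1.27, adjusted p = 0.0016), and 3 of 8 genes of the AU-rich element list passed in all, all lower, a share near that of all genes. With array medians subtracted 4 of the 8 were called higher and 3 lower. The nuclear receptor partner RXRA differed by -0.65 (adjusted p = 0.0439) and by -0.06 with array medians subtracted.

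Of the factors that drive early genes, serum response factor itself differed by -0.35 at 9 and 10 h (adjusted p = 0.202 in limma), and its partner ELK1 (-1.67) and ELK4 (-0.86) were lower, the 2 of 6 tested in that list that passed, against 40.8% of all genes. ELK1 was still lower with array medians subtracted (-1.07), while ELK4 lost the call (-0.27, adjusted p = 0.176) and the list then held 2 genes called higher and 1 lower. In the CREB list 4 of 8 were lower, also close to the share of all genes, namely the coactivator CRTC2 (-2.0), CREM (-1.84), CREB3 (-1.51) and CREB1 (-0.63). With array medians subtracted these were -1.41, -1.24, -0.91 and -0.04, and the last did not pass. Of 21 other immediate early genes tested of 30 listed, IER3 and KLF2 among them, 13 were lower at 9 and 10 h, against 40.8% of all genes, and 2 higher, and the median difference was -0.73, against -0.44 for all genes. This balance turned with the scale, to 4 higher and 6 lower with quantile normalization and to 7 higher and 4 lower with array medians subtracted. JUNB (-2.67), HES1 (-2.33) and PPP1R15A (-1.26) were among the lower ones, and with array medians subtracted were still lower at -2.08, -1.74 and -0.67. JUN stood on the other side, with differences of 3.53 at 7 and 8 h (adjusted p = 1e-05) and 2.20 at 9 and 10 h (adjusted p = 7.05e-05), and was thus 1 of the 2 genes of the whole array called at 7 and 8 h. FOS read 6.81 at its highest, but no probe set of it reached the level of 5 on 2 or more arrays, and it was therefore not tested. Over the DMSO course 14 of the 21 passed, where 21.8% of all genes did.

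Likeness of pattern was described by Pearson's r over the 12 arrays after the median of each array was subtracted. The 3 genes most like EGR1 were SESN2 (0.951), TRIQK (0.940) and CDADC1 (0.937), an order that the 0 h array weighs on. JUND was the gene most like KLF6 (0.958), followed by PMAIP1 (0.955) and MSANTD3 (0.950). NR4A2 was most like HACD2 (0.959), DNAJC9 (0.957) and TOP2B (0.956). For IER2 they were INTS8, MCM2 and OTUD1 (0.963 to 0.951), for IER5 TOPBP1, CCDC186 and RILPL2 (0.969 to 0.948), for KLF5 YEATS4, CCDC28A and LGALS8 (0.945 to 0.935) and for ZFP36 CNP, FKBPL and PITPNA-AS1 (0.953 to 0.942). For KLF4 they were SERPINB1, PPP1R35 and CYREN (0.938 to 0.927), for NR4A1 MRPL15, C6orf89 and BCL2 (0.968 to 0.955), and for KLF10, whose nearest gene was the least alike of the 10, ID2, PPP6R3 and DDIT4 (0.873 to 0.828). None of these was one of the 10 genes. Among the 10, r was highest between NR4A2 and KLF5 (0.815), KLF5 and ZFP36 (0.811) and IER5 and ZFP36 (0.799), and lowest between IER5 and NR4A1 (-0.120). Neighbouring times and the shared shifts of the arrays enter all of these values, and the 12 arrays are not replicates of each other.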

How the data were processed

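The authors hybridized 12 RNA samples of synchronized HCT116 cells to Affymetrix U133 Plus 2.0 arrays and deposited log2 signals for 54675 probe sets, made with GC-RMA per the labels (version not given in the sources used here). That the logarithm has base 2 was inferred from the values. GC-RMA sets low probes near a common floor, so differences near the detection mark of 3.5 are uncertain. Probe sets were named through GEO's annotation of the array: 41097 had 1 symbol, 1801 several and 11777 none. Kept were 15030 with 1 symbol that reached 5 on 2 arrays or more, and the one of highest mean stood for its gene.

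Genes were tested in limma 3.58.1 (R 4.3.3) with an intensity trend and Benjamini-Hochberg adjustment over 9130 genes (threshold 0.05), on simulated data first: a spline and windows for DMSO, and nocodazole against DMSO with the hour as a block and an interaction for the change. The genes named were the 10, up to 6 of each list and the 3 most alike in pattern to each of the 10. Members and lists were chosen with earlier results of these data known. Alternatives were other filters, rescaling, probe set means, no trend, a spline of 2 degrees of freedom, no block, and each time left out. Tests of each probe set and differences relative to the median gene were added after seeing the data. Promoters were searched in Python 3.11.15 with pandas 2.3.3 and numpy 2.4.6, and drawn with matplotlib 3.10.9. The number of arrays limits the precision.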

Additional observations from a re-analysis of the deposited data

Results flagged for a closer look

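For ZFP36 and KLF5 the difference between nocodazole and DMSO was not the same at 9 and 10 h as at 7 and 8 h, by the interaction test in limma. The change was -1.61 for ZFP36 (adjusted p = 0.0167) and -1.08 for KLF5 (adjusted p = 0.0236), lower at the later hours in both. The median change over all genes was -0.44, and with quantile normalization neither passed (-0.98 and -0.56).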

How the results depend on the processing

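Each condition had 1 array, so a time left out leaves its window with fewer arrays, and a lone array is assumed to vary like the others. The arrays were paired by hour, not by replicate number. Without this block 2454 genes passed over 7 to 10 h, against 1785 with it, NR4A2 no longer passed there (adjusted p = 0.0606 in limma) and KLF4 passed at 9 and 10 h (adjusted p = 0.0207). The cause of the changes below was not tested. Called genes for the DMSO course were 3665 with quantile normalization and 3598 with array medians subtracted, and 862 to 2220 with 1 time left out. For 6 to 8 h against 0 to 4 h they were 65 without a filter, 884 with quantile normalization (464 higher, 420 lower) and 864 with medians subtracted (442 and 422), against 494 and 58 as deposited, and 0 to 1266 with 1 time left out. For 9 to 10 h against 6 to 8 h, leaving out 1 time gave 0 to 1. For nocodazole over 7 to 10 h they were 9648 without a filter and 666 to 4158 with 1 time left out, and 854 higher and 906 lower with quantile normalization or 1357 and 906 with medians subtracted, against 242 and 1543 as deposited. At 7 and 8 h they were 19 with a filter at 7, 17 with quantile normalization, 70 with medians subtracted, 4 with the mean of the probe sets, 1 without the block and 27 to 82 with 1 time left out. At 9 and 10 h they were 13347 without a filter and 1451 (without 10 h) to 5214 (without 9 h). For the change between them they were 10073 without a filter, 1742 with a filter at 7, 719 with quantile normalization, 1714 with the mean of the probe sets, 1700 without the block and 297 to 4046 with 1 time left out.

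Differences at 9 and 10 h that turned were EGR1 (0.57 with quantile normalization, 0.57 with medians subtracted, 0.41 relative to the median gene, -0.18 to 0.13 with 1 time left out), NR4A1 (0.53, 0.49 and 0.33), KLF4 (0.07, 0.05 and 0.03 on probe set 220266_s_at) and KLF6 (0.42, 0.48 and 0.32, and -0.57 to 0.34 with 1 time left out). The NR4A2 change was 0.40 on its representative, but -1.58 with the mean of its probe sets, -3.08 and -2.07 on the other probe sets and -0.28 to 1.08 with 1 time left out. At 6 to 8 h against 0 to 4 h, EGR1 was 0.59 and 0.52 and KLF6 0.15 and 0.08 on other probe sets. Of 525 values under alternatives for 38 results on single genes, 422 were counted as unchanged in direction and side of the threshold, 46 lost the call, 34 gained it and 23 turned. The 38 are the results taken up in the text, not every gene in every test. For the DMSO course the value is a span, which cannot turn. Values relative to the median gene have no p and were judged by direction alone. The tally is thus no measure of how firm the results are. At a mark of 3 or 4, 0 of the representative values were still not detected.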
